A study of Arabidopsis thaliana with 3 samples.

Results

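The effect of ABAP1 overexpression on transcripts was followed across fertilization, by setting siliques at stages 15 to 16 against open flowers at stage 14. For each transcript probe the log2 ratio of ABAP1OE over wild type in open flowers was subtracted from that in siliques, and the difference is called the shift: above 0, the ratio was higher in siliques than in open flowers. Control spots and probes with either ratio 2.2 or more in size were left out. The table held 26545 probes and 24838 of them were retained, and 5634 of these, with 1 gene in the platform annotation, gave 5307 of the 5443 genes with such a probe on the array. The last ratio kept had a size of 2.186 and the first one left out had a size of 2.202.

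ABAP1OE plants expressed the ABAP1 coding sequence from the CaMV 35S promoter, which is active in most plant tissues, in the Col-0 background. Per the study's text, plants homozygous for this construct were not recovered. Wild-type Col-0 plants were hybridised with them on 2-colour arrays of long oligonucleotide probes (Arabidopsis Genome Oligo Set), from amplified antisense RNA of pooled flowers and siliques. The 3 biological replicates of each stage were combined by the authors into 1 ratio per probe, so 1 value per stage stands for each probe, and no test, SD or p-value between stages or genotypes could be computed. All comparisons below describe these values.

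ABAP1 (Armadillo BTB Arabidopsis protein 1) is a plant protein that binds the replication licensing machinery and several transcription factors and acts as a negative regulator of cell division. Open flowers hold mature pollen and receptive ovules. After fertilization petals and stamens are shed, the ovary wall and the young seeds grow, and the egg cell and central cell give way to embryo and endosperm.

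In the gene annotation used here no probe was named for ABAP1 itself, nor for TCP16, ADAP, CDT1B or EDA24. The overexpression could therefore not be checked at these stages. EDA24-like, the target gene of the study, was not among the names looked up. The study reports unchanged EDA24 and lower EDA24-like on its flower bud array, so a gene without a named probe here can still have a probe. For siliques and open flowers the direction of the ratios was taken as labelled and could not be checked. The 36 empty spots had a median ratio of -2.21 in siliques and -2.21 in open flowers, and 33 of them were 2.2 or more in size at one or both of these stages. Among transcript probes 231 stood at exactly that value in siliques and 352 in open flowers, and all of them were left out by the limit on size. Only ratios were deposited for these stages, so the tissue labels could not be checked against marker levels.

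Most genes were close to wild type at both stages. The interquartile range of the 5307 genes lay between -0.20 and 0.20 in siliques and between -0.15 and 0.15 in open flowers, and that of the shifts lay between -0.22 and 0.23 with a median of 0. Across genes the silique ratio had a Pearson correlation of 0.24 and a Spearman correlation of 0.24 with the open flower ratio, over genes that share the same 2 sets of arrays. At least 2-fold from wild type were 59 genes higher and 48 lower in siliques, and 63 higher and 51 lower in open flowers.

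The shift was at least 2-fold upward for 89 genes (1.68% of 5307) and at least 2-fold downward for 98 genes (1.85%). Over all 24838 transcript probes the shares were 1.77% upward and 1.83% downward. With a limit of 1.5-fold, 383 genes (7.22%) were shifted upward and 349 (6.58%) downward. Taking the bud stage (stage 13) as the start of an earlier step, open flowers against flower buds by the same rule gave 127 genes upward and 77 downward of 5289, which are 2.40% and 1.46%. Both steps use the open flower column, so their values are not independent.

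**Figure D1:**
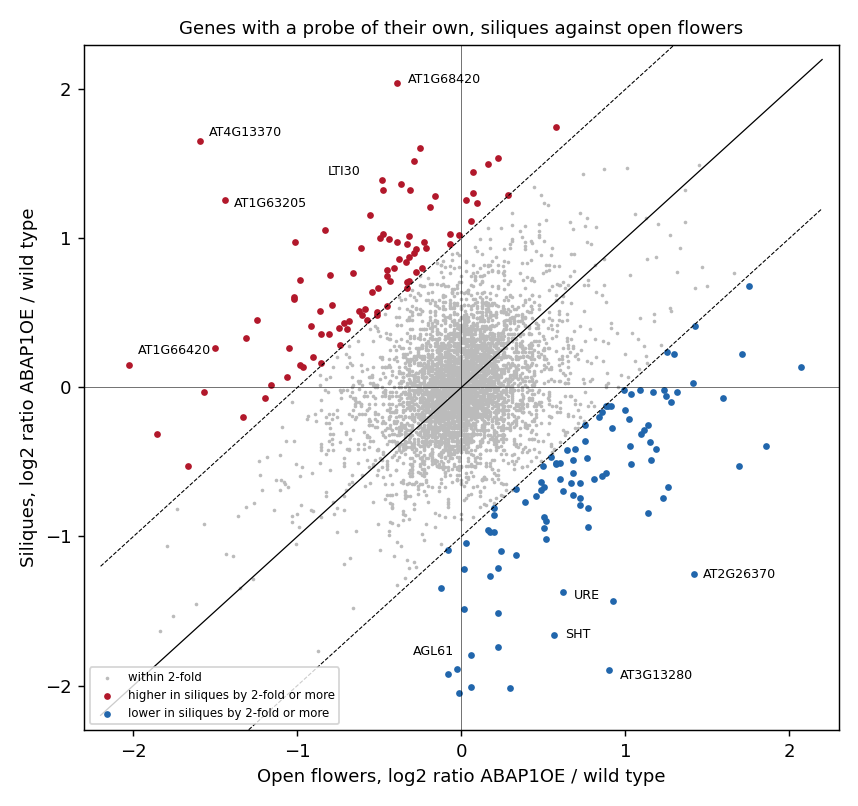
Log2 ratios of ABAP1OE over wild type in siliques (vertical axis) and open flowers (horizontal axis) for 5307 genes with a probe of their own, 1 combined value per stage. The solid line marks equal ratios and the dashed lines a 2-fold shift, beyond which lie 89 genes above and 98 genes below.

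Most shifted genes had ratios on opposite sides of wild type. Of the 89 genes shifted upward, 75 were on opposite sides at the 2 stages, with median ratios of 0.77 in siliques and -0.51 in open flowers. Of the 98 genes shifted downward, 86 were on opposite sides, with medians of -0.61 in siliques and 0.72 in open flowers. A large difference favours opposite sides by the way it is made.

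The shifted genes were then split by size. Among those shifted upward, 22 were at least 2-fold from wild type in siliques and near wild type, under 0.5 in size, in open flowers. The reverse, 2-fold in open flowers and near wild type in siliques, held for 11. A further 18 were 0.5 or more in size with opposite signs, and 38 met none of these limits. Among those shifted downward, 17 were 2-fold in siliques and near wild type in open flowers, 24 were 2-fold in open flowers and near wild type in siliques, 31 had opposite signs, and 26 met none of these limits.

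The largest upward shift was that of AT4G13370, whose log2 ratio was 1.65 in siliques and -1.59 in open flowers, a shift of 3.25. AT1G63205 followed, with 1.26 in siliques and -1.44 in open flowers, a shift of 2.70. These genes, with AT2G26370 at -1.25 in siliques and 1.42 in open flowers (shift -2.67), were the 3 that stood at least 2-fold from wild type in opposite directions at both stages. All 3 are known here by their locus tag alone. A probe shared by AT4G13370 and other genes had a shift of 0.08, and one shared by AT1G63205 and other genes had a shift of -0.54, neither of them 2-fold.

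Other large upward shifts came mainly from the silique ratio. AT1G68420 had 2.04 in siliques and -0.39 in open flowers, AT5G11570 had 1.60 and -0.25, AT4G18090 had 1.52 and -0.29, and AT5G67120 had 1.32 and -0.48, in the same order of stages. In AT1G66420 and AT1G72580 the shift came mainly from the open flower ratio, with 0.15 and 0.26 in siliques against -2.02 and -1.5 in open flowers. AT5G51900, with 0.98 in siliques and -1.01 in open flowers, and AT4G02190, with 1.06 and -0.83, lay between them.

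The most negative shift was that of AT3G13280, with -1.90 in siliques and 0.90 in open flowers, a shift of -2.80. AT1G78530 had -1.43 in siliques and 0.93 in open flowers, and its flower bud ratio stood at the -2.21 of the empty spots. AT3G54680, AT5G15340 and AT1G57906 had silique ratios of -2.01, -2.01 and -2.05, against open flower ratios of 0.30, 0.06 and -0.01. In AT3G53770 and AT5G07160 the open flower ratio was the larger one, with -0.39 in siliques against 1.86 in open flowers for the first gene and -0.53 in siliques against 1.70 in open flowers for the second. AT5G48430 and AT1G68180 had -0.84 and -0.74 in siliques, against 1.14 and 1.23 in open flowers.

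**Figure D2:**
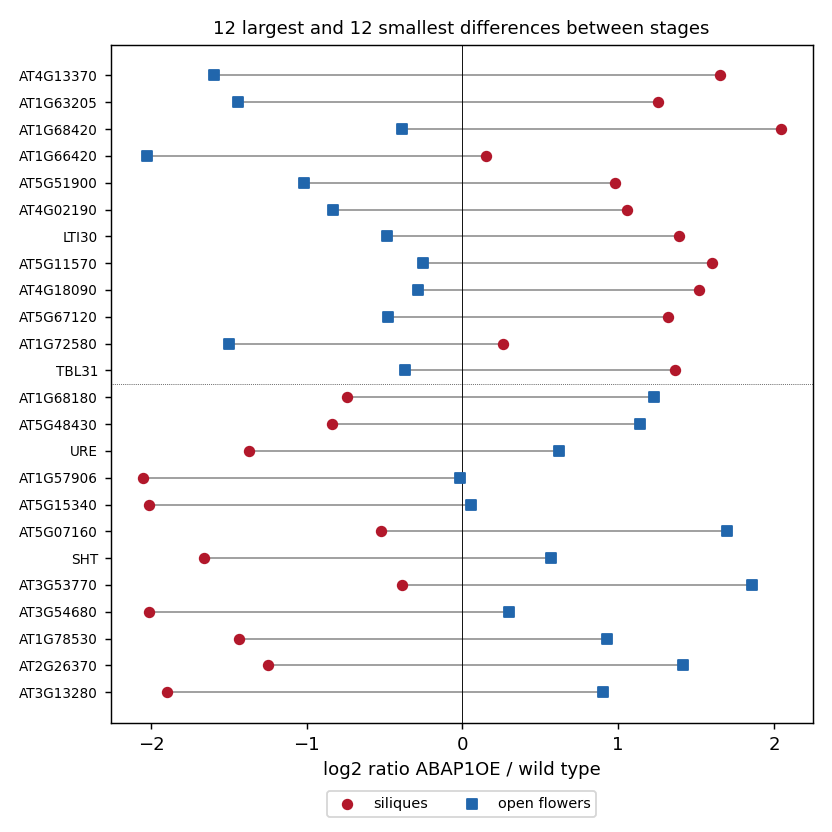
Log2 ratios of ABAP1OE over wild type in siliques (circles) and open flowers (squares) for the 12 genes with the largest upward shift, above the dotted line, and the 12 with the largest downward shift, below it. AT4G13370 spans 1.65 in siliques and -1.59 in open flowers, and in 3 of the 24 genes both ratios are at least 2-fold from wild type.

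Of the 5307 genes, 531 had a name besides the locus tag. Their median shift was 0.03, and 8 of them (1.51%) were shifted at least 2-fold upward and 5 (0.94%) downward, against 1.70% and 1.95% of the 4776 genes known by locus tag. The 12 highest and 12 lowest of these 531 genes, a list made after their values were seen, are described by role.

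LTI30 and LEA4-5 stood among the highest of these genes. LTI30, a dehydrin induced by cold and drought that is also called XERO2, had a log2 ratio of 1.39 in siliques and -0.49 in open flowers, and with a shift of 1.88 it was the highest of the genes with a name. LEA4-5, a late embryogenesis abundant protein of drying seeds and stressed tissue, had 1.21 in siliques and -0.19 in open flowers, a shift of 1.4. In flower buds LEA4-5 had a ratio of -1.92, so the order over the 3 stages was -1.92, -0.19 and 1.21.

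The group of late embryogenesis abundant proteins and dehydrins, taken by symbol and synonym, had 4 retained members and is described only because its values were seen. The other members were AT1G54410, with 0.77 in siliques and 0.23 in open flowers, and AT2G44060, with -0.04 in siliques and 0.06 in open flowers. The median shift of the 4 was 0.97, against 0 over all genes, and 2 of the 4 were shifted at least 2-fold upward, against 1.68% of all genes. Members known by locus tag alone can be missing and can be shifted either way. These values therefore do not cover the whole group on the array and give no direction for it. AT2G46300, described below as a LEA glycoprotein and with a shift of 0.71, was not among the 4. In the opposite direction, AT1G57550, of the low temperature and salt responsive family, had a shift of -1.01. Also above wild type in siliques were HIS1-3, a drought-induced linker histone, with 1.34 in siliques and 0.44 in open flowers, and DI19, a drought-induced zinc finger protein, with 1.17 in siliques and 0.31 in open flowers. Both were under a 2-fold shift, at 0.90 and 0.86, and probes that each shares with other genes had shifts of 0.08 for HIS1-3 and 0.29 for DI19.

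Cell wall genes stood at both ends. TBL31 and TBL30 belong to the trichome birefringence-like family, whose members acetylate wall polysaccharides. TBL31 had a ratio of 1.36 in siliques and -0.37 in open flowers, a shift of 1.73. TBL30 had 0.75 in siliques and -0.45 in open flowers, a shift of 1.2. This family was not fixed beforehand, and 2 of its 7 retained members were shifted 2-fold upward, against 1.68% of all genes. The other 5 were under a 2-fold shift, with TBL36 lowest at -0.68 and AT2G31110 at -0.38, and the family median was -0.07.

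At the lower end of the wall genes, XTH33, a xyloglucan endotransglucosylase/hydrolase, had -1.04 in siliques and 0.03 in open flowers, a shift of -1.07. EXLB1, an expansin-like protein, had -0.53 in siliques and 0.40 in open flowers, a shift of -0.93, while a probe it shares with other genes had 0.29. CSLA01, of the cellulose synthase-like A group that makes mannans, had -0.36 in siliques and 0.50 in open flowers, a shift of -0.85. The 20 retained XTH and other glycosyl hydrolase genes had a median shift of 0.19, with 1 of them shifted 2-fold downward, against 1.85% of all genes, and none upward. With the residual of the silique ratio on the open flower ratio that median was -0.11. In this family GH9C1 was at -0.70, and the beta-glucosidases BGLU33 and BGLU24 were at 0.54 and 0.59. The 5 expansins had a median of -0.16, with EXPA20 at -0.34, EXPA21 at 0.24 and EXPB5 at 0.25.

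Reproductive regulators of the MADS box family were shifted both ways. GOA (GORDITA, AGL63), a MADS box factor that limits fruit growth, had a ratio of 0.79 in siliques and -0.45 in open flowers, a shift of 1.25. AGL33 had 0.77 in siliques and -0.28 in open flowers, a shift of 1.05. AGL61 (DIANA), which acts in the central cell of the female gametophyte, had -1.79 in siliques and 0.06 in open flowers, a shift of -1.85. In flower buds the AGL61 ratio was -0.40. The study's qRT-PCR, on ovaries by its text and flower buds by its caption, gave a strong reduction of AGL61 in ABAP1OE. AGL77 had 0.52 in siliques and 1.28 in open flowers, a shift of -0.77.

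The 17 retained MADS box genes had a median shift of -0.12, with 2 shifted upward and 1 downward by 2-fold, where all genes gave 1.68% and 1.85%. A probe shared by AGL61, AGL62 and AT4G36590 had a shift of 1.02, with 0.59 in siliques and -0.42 in open flowers, opposite to the probe of AGL61 alone. A probe shared by AGL33, AGL65 and AGL30 had a shift of 0.07.

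SHT, spermidine hydroxycinnamoyl transferase, makes the spermidine conjugates of the pollen coat in the tapetum of the anther. Its log2 ratio was -1.66 in siliques and 0.57 in open flowers, a shift of -2.23 and the lowest among genes with a name. A probe naming SHT together with HCT and other genes had a shift of -0.05. In these pooled organs, fewer cells of a type and less RNA per cell cannot be told apart. PLIM2b, an actin-bundling protein of pollen, had -0.15 in siliques and -0.29 in open flowers, a shift of 0.14. These were the 2 of 22 listed markers of pollen and pollen tube that were retained. SHT, as a gene of the tapetum, does not stand for pollen itself. The part of these 2 genes in other results was not tested.

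Markers of the female gametophyte showed no common direction. EC1.1, a sperm-activating peptide of the egg cell, had -0.28 in siliques and -0.37 in open flowers, a shift of 0.09. EC1.5, of the same family, had -0.53 in siliques and 0.03 in open flowers, a shift of -0.55. DME, the DNA glycosylase that demethylates the central cell genome, had -0.04 in siliques and -0.11 in open flowers, averaged over 2 probes whose shifts were -0.30 and 0.43. UBC31, a ubiquitin-conjugating enzyme used as an antipodal cell marker, had 0.36 in siliques and -0.43 in open flowers, a shift of 0.79. In flower buds UBC31 had -2.19, close to the -2.21 of the empty spots at the later stages.

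With AGL61, these made 5 retained genes from 19 names listed for egg, synergid, central and antipodal cells. Of these names 4 were not matched to a gene and may repeat others. SWEET9, the sucrose exporter of nectaries and the only retained nectary marker of 5 listed, was above wild type at both stages, with 1.11 in siliques and 1.36 in open flowers, a shift of -0.25. Of the 120 markers in 11 lists 8 were retained, and sperm cell, endosperm, seed coat, embryo and seed storage, organ identity, shedding, valve, and replication lists had no retained member, so the arrival of seed tissues in siliques could not be followed with them.

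**Figure D3:**
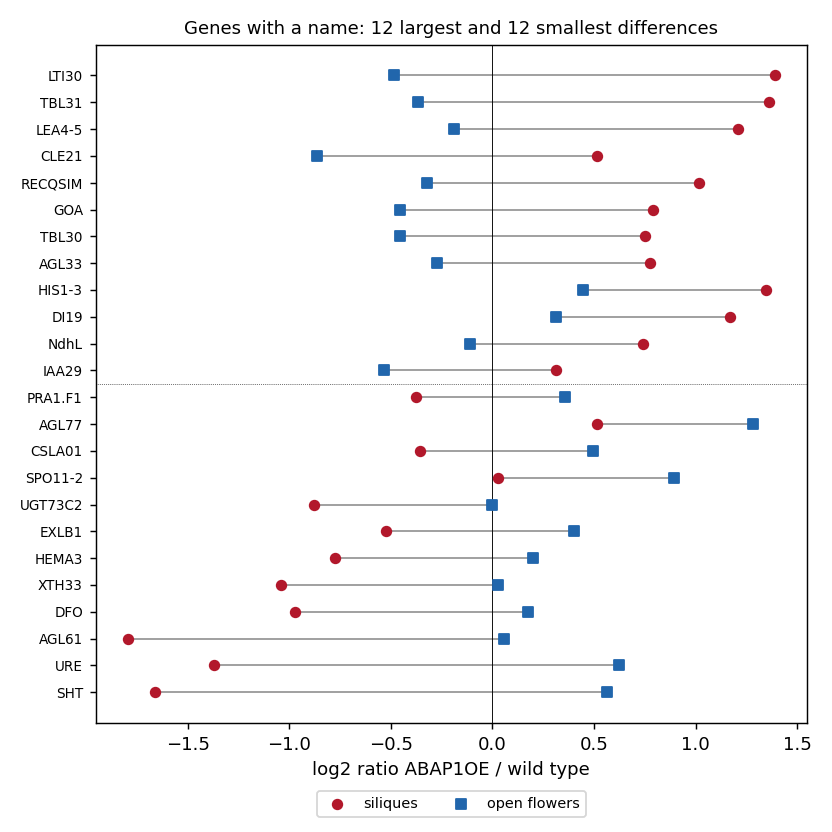
Log2 ratios of ABAP1OE over wild type in siliques (circles) and open flowers (squares) for the 12 highest and 12 lowest shifts among 531 genes with a name, divided by the dotted line. LTI30 stands at the upper end with a shift of 1.88 and SHT at the lower end with -2.23.

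Genes of meiosis and DNA repair also stood at both ends. RECQSIM, a RecQ-type DNA helicase, had a ratio of 1.01 in siliques and -0.32 in open flowers, a shift of 1.34. DFO, needed for the double-strand breaks that start meiotic recombination, had -0.97 in siliques and 0.18 in open flowers, a shift of -1.15. SPO11-2, a subunit of the enzyme that makes those breaks, had 0.03 in siliques and 0.90 in open flowers, a shift of -0.87. REV7, a subunit of a translesion DNA polymerase, was at -0.58. The 18 retained genes of DNA replication and repair had a median shift of -0.22, with 11 below 0 and 6 above it. Of all 5307 genes 2583 were below 0 and 2641 above it. By 2-fold 1 of the 18 was shifted upward and 1 downward, against 1.68% and 1.85% of all genes.

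Metabolic and signalling genes with a name were spread over both directions. URE, the urease that releases ammonia from urea, had -1.37 in siliques and 0.62 in open flowers, a shift of -1.996. HEMA3, a glutamyl-tRNA reductase of tetrapyrrole synthesis, had -0.77 in siliques and 0.20 in open flowers, a shift of -0.98. UGT73C2, a UDP-glycosyltransferase, had -0.88 in siliques and 0 in open flowers, while a probe it shares with other genes had a shift of 0.16. CLE21, a small secreted peptide of the CLAVATA3/ESR family, had 0.52 in siliques and -0.86 in open flowers, a shift of 1.38.

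IAA29, an Aux/IAA repressor of auxin response, had 0.31 in siliques and -0.54 in open flowers, a shift of 0.85. NdhL and CRR41, a subunit and a factor of the plastid NADH dehydrogenase-like complex, had silique ratios of 0.74 and 0.70, against -0.11 and -0.11 in open flowers, and shifts of 0.85 and 0.81. PRA1.F1, of a family of membrane traffic proteins, had -0.38 in siliques and 0.36 in open flowers, a shift of -0.73.

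Family medians stayed close to that of all genes, which was 0. Of 66 families taken by name, 22 had 5 or more retained members, together 234 genes, and their median shifts ran between -0.28 for sugar transporters and 0.28 for histones. In 19 of the 22 families the median was under 0.25 in size. Of the 234 genes 6 (2.56%) were shifted upward and 3 (1.28%) downward by 2-fold, near the 1.68% and 1.85% of all genes. Not fixed beforehand were the trichome birefringence-like, signalling peptide, DNA replication and repair, vesicle traffic, cation and metal transporter, and IQ domain families. The shifted genes TBL30, TBL31, CLE21, RECQSIM and DFO came from them, so these shares are not those of a list set in advance. In 17 families no member counted was shifted by 2-fold. Genes known by locus tag alone entered a family only through a synonym, so these counts and medians leave out members. AT5G37670, described below as of the small heat shock protein class and with a shift of 1.13, is one. The sign of the median changed under at least 1 setting in 12 of the 22 families. The other 10 include the photosynthesis family, whose median of exactly 0 had no sign to keep. That median was -0.05 with columns scaled to equal interquartile ranges and 0.23 with the residual of the silique ratio on the open flower ratio.

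Among families of growth and hormones, the 5 histones included HTB11 at 0.43, HIS4 at 0.28 and HTB4 at 0.19 beside HIS1-3 at 0.90. Above 0 were 4 of the 5, as were 49.8% of all genes. The 7 auxin genes had a median of 0.23 (-0.13 with the residual), with IAA31 at 0.39, IAA33 at 0.29 and GH3.1, which conjugates auxin to amino acids, at -0.32. The 14 signalling peptides had a median of -0.05, with CLE27 at -0.51 and CLV3, the peptide that limits the shoot meristem, at -0.41, opposite in sign to CLE21.

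In transport, 4 of the 6 sugar transporters were below 0, as were 2583 of all 5307 genes. The vacuolar transporter TMT1 was at -0.47, SWEET2 at -0.38 and SWEET10 at -0.31, with SWEET9 at -0.25. The 10 cation and metal transporters had a median of 0.10, with ZIP6 at -0.53, ZIP9 at -0.49, CHX20 at 0.50 and NRAMP5 at 0.67. The 16 vesicle traffic genes had a median of 0.04, with AtSec20 at -0.58, PRA1.B6 at -0.38 and the Rab GTPase ARA6 at 0.45.

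In secondary metabolism the 20 UDP-glycosyltransferases had a median of 0.08, with UGT78D1, a flavonol glycosyltransferase, at 0.61, UGT85A5 at 0.55 and UGT74B1, of glucosinolate synthesis, at 0.54. The 5 cytochromes P450 had a median of -0.27, with CYP71B29 at -0.68, CYP718 at -0.48, CYP71B30P at 0.33 and CYP71B6 at 0.59. The 7 glutathione transferases had a narrow range, with GSTU26 at -0.30, GSTU22 at -0.25, GSTU28 at 0.18 and GSTU20 at 0.24. The 10 serine carboxypeptidases had a median of 0.13, with scpl33 at -0.42, SCPL32 at 0.32, scpl38 at 0.40 and SCPL49 at 0.43.

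In protein turnover and folding the 11 genes of ubiquitin conjugation and the proteasome had a median of 0.15, with UBC31 at 0.79, UBC22 at 0.55, UBC32 at 0.26 and UBP24 at 0.25. The 6 RING and U-box proteins had a median of -0.14, with ATL43 at -0.55, PUB54 at -0.26, XERICO, which raises abscisic acid levels, at -0.23, and ATL63 at 0.30. The 5 heat shock proteins and chaperones had a median of -0.12, with ATERDJ3B at -0.43 and CCS, the copper chaperone of superoxide dismutase, at -0.33, and the 6 bZIP factors had a median of -0.04, with bZIP52 at -0.40 and BZIP53 at 0.19.

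The cytoskeleton and plastid families were close to 0. The 11 genes of kinesin, actin and tubulin had a median of 0.14, with TUA1 at 0.31, PFI at 0.25, TUB6 at 0.21 and XI-I at 0.20. The 15 photosynthesis and plastid electron transport genes had a median of 0, with LPA19 at -0.43 and CRR21 at 0.48. The 13 IQ domain and TON1 recruiting motif proteins, which associate with microtubules, had a median of 0.02, with iqd32 at 0.79, IQD22 at 0.72, TRM26 at 0.61 and IQD19 at 0.37, and 3 of them were above 1.5-fold, against 7.22% of all genes.

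**Figure D4:**
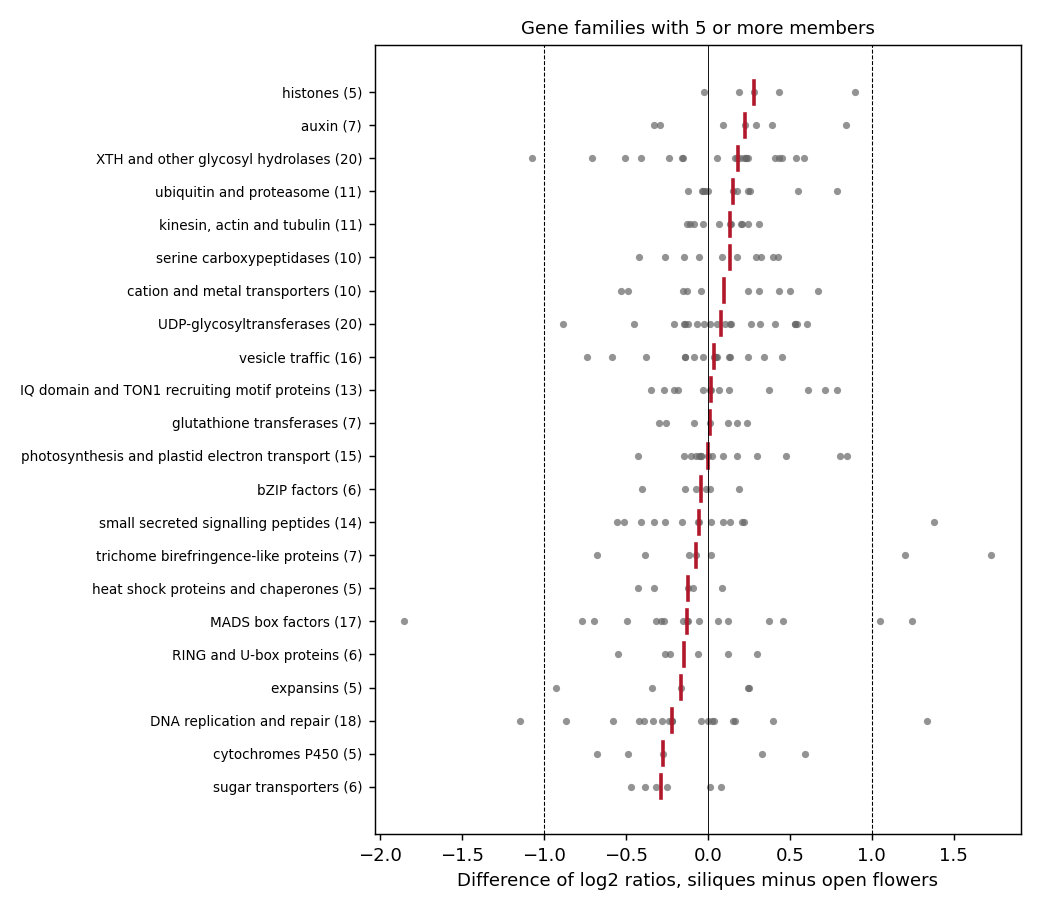
Shift of the log2 ratio, siliques minus open flowers, for each member (grey points) of the 22 families with 5 or more retained genes, the number of members in brackets. Red bars are family medians, which lie between -0.28 and 0.28, and dashed lines mark 2-fold.

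The flower bud ratios were not used to form the shift, and they were set beside it. Over the 5269 genes whose bud ratio was under 2.2 in size, the bud ratio had a Pearson correlation across genes of 0.29 with the open flower ratio and of 0.07 with the silique ratio. With the shift the Pearson correlation was -0.16 and the Spearman correlation -0.17. The shift holds the open flower ratio with a minus sign, so these values share that column, and genes are not independent replicates.

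On the median, genes away from wild type in buds were nearer to it in open flowers and nearer still in siliques. Choosing genes by a far bud ratio favours values nearer 0 in other columns by the way the choice is made. Whether these ratios changed with stage was not tested. The 119 genes at least 2-fold lower in buds had median ratios of -1.31, -0.37 and -0.12 at the bud, open flower and silique stages, and a median shift of 0.25. Of them 11 (9.24%) were shifted 2-fold upward and 6 (5.04%) downward, against 1.39% and 1.55% of the 5094 genes within 2-fold of wild type in buds. The 56 genes at least 2-fold higher in buds had medians of 1.25, 0.43 and 0.08 at the same stages and a median shift of -0.29, with 1 (1.79%) shifted upward and 7 (12.5%) downward. No test of these shares was made.

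The same was seen for the flower bud genes singled out by the study, a list chosen on the bud ratios of these arrays and so not independent of them. Of these, 40 genes lower in buds and 6 higher in buds had a retained probe of their own. They are a minority of that list, and the other genes on it were not followed here. The 40 had median ratios of -1.41, -0.49 and -0.06 over the stages of bud, open flower and silique, and 29 of them had a shift above 0, as did 49.8% of all genes. At 2-fold 3 of the 40 were shifted upward and 2 downward, against 1.68% and 1.85% of all genes. The 3 were LEA4-5, AT5G37670 and AT3G26860. At 1.5-fold 11 of the 40 were shifted upward and 2 downward, against 7.22% and 6.58% of all genes.

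Several of these 40 genes carry family names in the study's annotation. AT3G26860, of the S1 self-incompatibility family of secreted plant proteins, had ratios of -2.22 in buds, -0.74 in open flowers and 0.29 in siliques. That bud ratio was past the limit of 2.2 applied to the later stages and close to the -2.21 of their empty spots. AT5G26060, of the same family, stayed below wild type at -1.29, -0.98 and -0.79. AT1G29140, of the pollen Ole e 1 allergen and extensin family, had -1.36, -1.01 and -0.52, and AT5G26700, a cupin, had -1.82, -0.80 and -0.28. AT5G37670, of the small heat shock protein class, had -1.18, -1.06 and 0.07, and AT1G35490, a bZIP factor, had -1.51, -0.86 and 0.01.

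At these stages AT2G46300, a LEA hydroxyproline-rich glycoprotein, had -1.08, -0.72 and -0.01, and AT5G64790, a family 17 glycosyl hydrolase, had -1.44, -0.82 and -0.24. EXPB5, a beta-expansin of the wall-loosening type, had -1.44, -0.58 and -0.32. These families differ in what their members are known to do.

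A pair of the 40 genes ran the other way by 2-fold. AT1G20130, a GDSL-type esterase, had -1.73 in buds, 0.52 in open flowers and -1.01 in siliques, a shift of -1.53. AT1G57550, of the low temperature and salt responsive family, had -1.52, 0.99 and -0.01, a shift of -1.01. Of the 6 genes higher in buds, AT5G15360 had 1.13, 1.02 and -0.21, a shift of -1.24, and AT4G11540, a C1 domain protein, had 1.01, -0.50 and 0.34, a shift of 0.84.

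**Figure D5:**
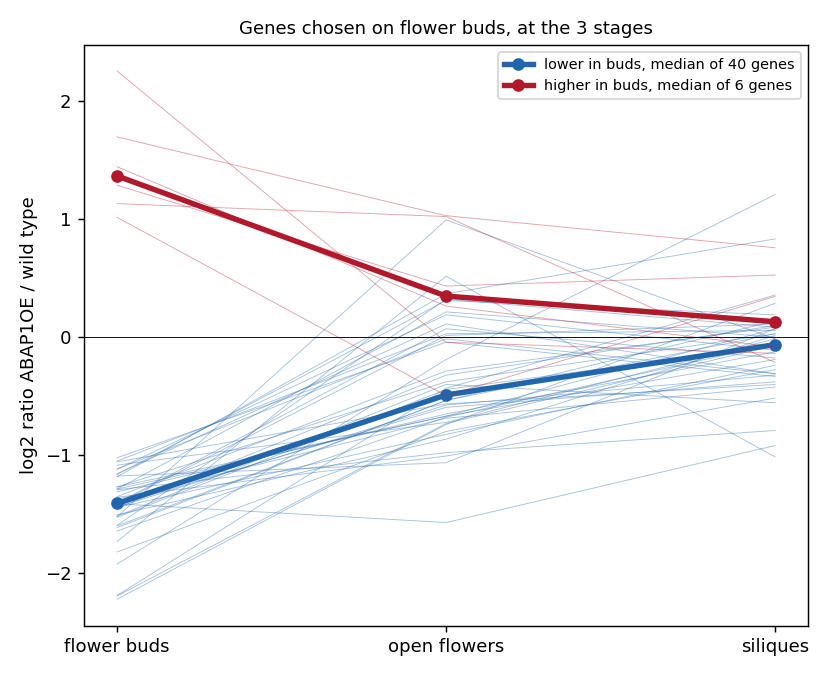
Log2 ratios of ABAP1OE over wild type at 3 stages for 46 genes that were chosen on flower buds, thin lines for genes and thick lines for medians. The median of the 40 genes lower in buds is -1.41, -0.49 and -0.06, taken by stage, and that of the 6 genes higher in buds is 1.37, 0.35 and 0.13.

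The shift was also set against position in the genome. The median shift of genes lay between -0.03 on chromosome 3 and 0.03 on chromosome 5, and the share shifted upward lay between 1.13% on chromosome 3 and 2.14% on chromosome 1. Across 1137 pairs of neighbouring genes the shifts had a Pearson correlation of -0.02. In 2 pairs both genes were shifted by 2-fold. AT1G73130 and TBL31 were both shifted upward, with shifts of 1.37 and 1.73, while AT3G29790 and AT3G29791 had shifts of -1.16 and 1.54.

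Repeat probes gave the only measure of error in the table. Of 275 genes with several retained probes, 228 had the same values on every probe, which are not a second measurement. In the other 47 genes the pooled SD of the shift between probes of a gene was 0.44, beside an SD of the shift over all genes of 0.44. The pooled value gives more weight to genes with many probes, and AT2G11270 and AT4G07670 had 15 each. Taken from the median variance of the 47 genes, the SD between probes was 0.26. In 6 of the 47 the probes were more than 2-fold apart. Each of the 12 highest and 12 lowest genes rested on 1 probe of its own. Of the 44 genes in the lists of extremes 13 also had a probe shared with other genes, and 0 of these shared probes were shifted 2-fold in the same direction.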

How the data were processed

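The values used are log2 ratios of ABAP1OE over wild type, as deposited by the authors, with 1 column for each of the 3 stages. The labels give 3 biological replicates, labelled with both dyes and combined into that column. How background, normalization and averaging were handled is not given in the sources used here, and no intensity was used, so signal over background is unknown.

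The shift was the silique ratio minus the open flower ratio over transcript probes with both ratios under 2.2 in size. Of 26474 transcript probes 926 lacked a ratio and 710 were over the limit. Names came from probes with 1 gene in the platform annotation (5634 retained), updated by gene identifier with the RefSeq TAIR10.1 table, which 28 annotated probes did not match. A further 7294 retained probes named several genes and 11910 none. Probes of a gene were averaged. Families were taken by symbol and synonym.

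The text names the 12 largest and 12 smallest shifts, genes 2-fold from wild type in opposite directions at both stages, up to 4 members of each family of 5 or more, and retained cell type markers. The 12 highest and lowest genes with a name were added after values were seen. Some families, named above, were not fixed beforehand. Members, families and lists were chosen with earlier results of these data known. Alternatives were centring, equal interquartile ranges, other limits on size and fold, other probe rules, and a residual from a straight line. Counting was tested on simulated data. Python 3.11.15, numpy 2.4.6, pandas 2.3.3 and matplotlib 3.10.9 were used.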

Additional observations from a re-analysis of the deposited data

Results flagged for a closer look

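AT4G13370, AT1G63205 and AT2G26370 were at least 2-fold from wild type in opposite directions in siliques and open flowers, and the difference was not tested, since each stage had 1 combined value. Their shifts were 3.25, 2.70 and -2.67. The probes that AT4G13370 and AT1G63205 share with other genes had shifts of 0.08 and -0.54.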

How the results depend on the processing

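No paired analysis was possible because the 3 replicates of a stage were combined into 1 column and no test was made. Against 89 genes upward and 98 downward, counts moved by over 1.5 times under these settings. Without a limit on ratio size 156 genes were shifted upward. With probes of several genes kept under each gene the counts were 164 and 175, over more genes. With the residual of the silique ratio on the open flower ratio, which takes away 0.28 of the open flower ratio instead of all of it, they were 43 and 50, of which 33 and 36 were among the genes above. They were 383 and 349 at 1.5-fold, 19 and 23 at 3-fold, 440 and 455 over every transcript probe, and 422 and 443 over every distinct set of values, the last chosen after seeing the data. Centring changed neither count. Scaling to equal interquartile ranges gave 94 upward and 129 downward. Of the 22 family medians 12 changed sign under at least 1 setting. With the residual 7 did, among them auxin genes at -0.13 in place of 0.23, glycosyl hydrolases at -0.11 in place of 0.19, kinesin, actin and tubulin genes at -0.09 in place of 0.14, and RING and U-box proteins at 0.11 in place of -0.14. With shared probes kept 6 did, among them serine carboxypeptidases at -0.23 in place of 0.13. With the mean the trichome birefringence-like family stood at 0.24 in place of -0.07. Of the 44 genes in the lists of extremes 33 had passed 2-fold. With the residual 7 of these were under it: AT1G66420 at 0.69, AT1G72580 at 0.66, AT3G53770 at -0.92, CLE21 at 0.74, GOA at 0.90, TBL30 at 0.86 and AGL33 at 0.83. With shared probes kept AGL61 was at -0.42 and AGL33 at 0.56, and with scaling AGL33 was at 0.99 and XTH33 at -0.93. AGL77, at -0.77, turned to 0.15 with the residual. The cause was not tested. With ratios under 1.5 in size 30 of the 44 remained measured.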
